A study of Mus musculus with 8 samples.

Results

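The 10 genes described here are interferon-stimulated genes: Ifit1, Ifit2 and Ifit3, the RNA sensor genes Ifih1 and Ddx58, and the effector genes Isg15, Isg20, Mx1, Ifi35 and Rsad2. They were taken by symbol from a table of 11354 genes, and all 10 had a row and passed the filter on low counts. The choice used no measured value of its own, but it was made with earlier results of these data known. The study sequenced poly(A) RNA of mouse CD4 T cells recovered after transfer to RAG-/- hosts, which lack lymphocytes of the T and B lineages, and by its design text the hosts received donor cells of each genotype in equal numbers. 4 libraries carry the label of wild-type donor cells and 4 that of Nlrp6-/- donor cells, all on the Black6 background, and hosts are numbered 1, 2, 4 and 5 under each label. A library is named by its label and host number, from WT 1 to KO 5. The sources used here give neither the age of the mice nor the design of the Nlrp6 allele, nor do they say if host 1 of one label is the same mouse as host 1 of the other. The tissue is spleen by the source label but colonic lamina propria by the protocol. Nothing beyond the host number says that the libraries of a label came from separate mice. The p-values here therefore set the difference between the labels against the variation among these libraries only.

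Cells sense foreign RNA through RIG-I, the product of Ddx58, and MDA5, the product of Ifih1, helicases that signal through the adaptor MAVS to switch on type I interferon. Interferon then acts through its receptor and factors such as STAT2 and IRF9, which bind a short element in the promoters of interferon-stimulated genes. Ifit proteins bind viral RNA or translation factors, ISG15 is a ubiquitin-like protein that is attached to other proteins, ISG20 is an exonuclease, RSAD2 (viperin) makes an antiviral nucleotide, and MX1 is a dynamin-like GTPase. T cells carry these transcripts without infection and make more of them when they meet interferon.

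The promoter stretches below are shown because they hold the core of the interferon-stimulated response element, which some of these genes share. This core is 2 copies of GAAA with any 2 bases between them, or the same on the other strand, where they read TTTC. The capitals mark the matches, each stretch ends before the start that the promoter table uses, and each runs 5′ to 3′ on the strand of its gene (RefSeq, GRCm38.p6). Ifit1 (chr19:34640770-34640828, plus strand) and Ifit3 (chr19:34583358-34583431, plus strand) each hold 2 matches with the same letters, TTTCACTTTC and TTTCAGTTTC. The start used for Ifit3 is base 34583529, and the RefSeq interval of the gene given further on begins upstream of it, so the Ifit3 stretch lies inside that interval. Isg15 (chr4:156200860-156200911, minus strand) holds 3, and the middle match overlaps the matches on both sides. Rsad2 (chr12:26456548-26456587, minus strand) holds 1.
Ifit1: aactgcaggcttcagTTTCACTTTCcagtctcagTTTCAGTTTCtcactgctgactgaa
Ifit3: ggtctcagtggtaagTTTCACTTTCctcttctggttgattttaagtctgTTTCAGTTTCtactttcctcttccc
Isg15: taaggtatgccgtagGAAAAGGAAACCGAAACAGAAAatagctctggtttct
Rsad2: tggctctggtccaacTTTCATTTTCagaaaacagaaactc

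In windows from 250 bases before to 50 after the start, 6 of the 12 windows of members held this core on either strand, as did 3.44% of all 32851 windows. These 6 windows belong to 6 of the 9 members with an entry. In Ifih1 and Ddx58 the match lay after the start, so it is not printed. Isg20, Ifi35 and Ifit2 held none in their windows. They held the gamma-activated site core TTCNNNGAA, searched in the same way, which 8.3% of all windows hold, so that no member had both motifs. Mx1 had no entry. A match is a string of letters and not a measured binding site.

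The table gave 35198192 to 40310721 counts per library. Nlrp6 itself went against the labels, with 0.0759 to 0.209 CPM (counts scaled to the effective library size) in the libraries labelled wild type and 8.38 to 16.3 CPM in those labelled knock-out, so every direction here is that of a label and not of a genotype. The T cell genes were high everywhere, for example Cd4 at 1087 to 1549 CPM. Their sum over 12 genes was 9078 to 10240 CPM with the wild-type label and 8516 to 9161 CPM with the knock-out label (two-sided exact permutation test, adjusted p = 0.0857). Of the 12, Cd247 (-0.40 ± 0.11, edgeR adjusted p = 0.0444) and Zap70 (-0.27 ± 0.07, adjusted p = 0.0304) were lower with the knock-out label, as were 3.84% of all genes. The others did not pass. The log2 fold change was below 0 for 11 of the 12, and for 5785 of all 11354 genes. Transcripts of myeloid cells, which also express interferon-stimulated genes, differed more. Of 20 myeloid markers 17 were higher with the knock-out label in edgeR's test and the other 3 did not pass, and their sum was 438 to 580 CPM with the wild-type label and 763, 1041, 1627 and 1280 CPM in KO 1, KO 2, KO 4 and KO 5. That sum, and those of 10 dendritic and MHC class II genes (77.6 to 133 and 487 to 1386 CPM) and 8 neutrophil genes (15.8 to 26.8 and 41.9 to 88.7 CPM), did not overlap between the labels (exact permutation test, p = 0.0286 each, the smallest that 70 assignments allow, adjusted p = 0.0572). Most of the wild-type myeloid sum was Ccr2, which did not pass (edgeR adjusted p = 0.693). Ccr2 was at 428 ± 63.2 and 456 ± 49.0 CPM with the wild-type and knock-out labels, so the sum understates the difference in the other myeloid markers. Most of the dendritic and MHC class II sum with the knock-out label was Cd74 (401 CPM), H2-Aa (158 CPM), H2-Eb1 (140 CPM) and H2-Ab1 (138 CPM). Of these 10 genes 7 were higher in edgeR's test. Zbtb46 (0.10 ± 0.19, edgeR adjusted p = 0.833), Itgax (0.45 ± 0.29, adjusted p = 0.405) and H2-DMa (0.73 ± 0.21, adjusted p = 0.0565) did not pass. Sums of plasmacytoid dendritic cell genes (390 to 429 and 406 to 468 CPM) and of natural killer and CD8 genes (227 to 380 and 288 to 335 CPM) overlapped. Most of the first sum was Runx2 (339 and 382 CPM) and most of the second was Eomes (237 and 229 CPM). Within these lists Pacsin1 was lower with the knock-out label (-0.91 ± 0.21, edgeR adjusted p = 0.0218). Cd8a was higher (2.21 ± 0.53, edgeR adjusted p = 0.028), though its libraries overlapped, and the other genes of both lists did not pass. Of 8 listed B cell markers 0 had a value here, so these were not analysed. The part of these transcripts in the levels of the 10 members was not tested, and a fit with the myeloid level as a term is given below. In RNA from bulk samples, fewer cells of a type and less RNA per cell cannot be told apart.

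Levels of different genes were compared per gene length. With the wild-type label Isg15 was the highest of the 10 at 50.4 ± 4.94 CPM per kilobase (SD, n = 4 here and below), at percentile 88.0 of all genes in the table. Ifi35, whose product is a leucine zipper protein that pairs with NMI, followed at 32.9 ± 1.89. Isg20 at 20.4 ± 2.04, Ddx58 at 18.4 ± 0.773 and Mx1 at 17.0 ± 2.86 CPM per kilobase came next, and these neighbours differed by less than the sum of their SDs. Ifit2 at 9.77 ± 0.243 and Ifih1 at 9.31 ± 0.855 CPM per kilobase formed a further such pair. The lowest were Ifit1 at 3.43 ± 0.624, Ifit3 at 2.16 ± 0.247 and Rsad2 at 1.60 ± 0.302 CPM per kilobase, Rsad2 at percentile 15.3. With the knock-out label the order of the 10 was the same, but Ifih1 at 7.30 ± 0.844 CPM per kilobase was below Ifit2 at 10.5 ± 0.685 by more than the sum of their SDs. Ifit3, at 3.57 ± 0.542 CPM per kilobase, differed from Ifit1, at 4.13 ± 0.412, by less than the sum of their SDs.

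The labels name the Nlrp6 genotype of the transferred cells, but Nlrp6 went against them, so the comparison here is of labels alone. Of the 10, Ifit3 and Ifi35 were higher with the knock-out label, Ifih1 was lower, and the other 7 did not pass edgeR's quasi-likelihood test (Benjamini-Hochberg adjusted p below 0.05 over all genes). Over all genes the test called 10.0% in either direction, 6.20% higher and 3.84% lower. The median log2 fold change, knock-out label over wild-type label, was 0.10 over the members and -0.0026 over all genes, with a range of -0.35 to 0.73 among the members. The labels' libraries did not overlap for 3 of the 10 members, the same 3 that were called, and for 16.0% of all genes. The 3 calls did not hold under every setting.

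**Figure D1:**
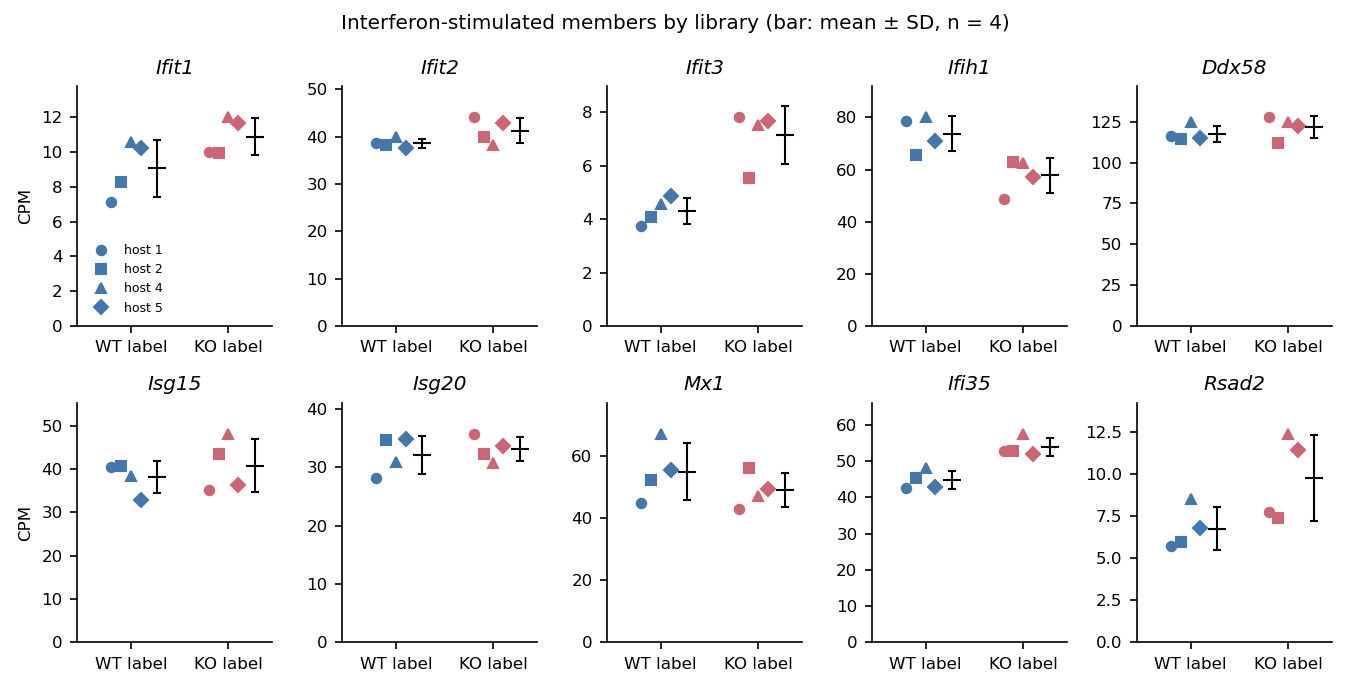
CPM of each of the 10 members in every library (vertical axes from 0), with the label on the horizontal axis, a symbol for each host number, and a bar for the mean ± SD of 4 libraries. The labels do not overlap for Ifit3, Ifi35 and Ifih1, and overlap for the other 7.

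Ifit1, Ifit2 and Ifit3 encode proteins built of tetratricopeptide repeats and lie in 1 cluster on chromosome 19. Ifit3 (Entrez 15959, chr19:34583119-34588982, plus strand) scaffolds Ifit complexes. It was at 3.75, 4.08, 4.55 and 4.86 CPM in WT 1, WT 2, WT 4 and WT 5. In KO 1, KO 2, KO 4 and KO 5 it was at 7.81, 5.53, 7.54 and 7.69 CPM. Every library labelled knock-out was above every library labelled wild type, with KO 2 nearest to them. The log2 fold change was 0.73 ± 0.14 (SE), or 1.66-fold with a 95% interval of 1.33 to 2.07, with edgeR adjusted p = 0.00986. The gene rested on 153 to 305 counts per library. It was called whichever 1 of the 8 libraries was left out (0.66 to 0.83), but the call was lost without KO 4 and KO 5, where the change was 0.63 on the log2 scale (edgeR adjusted p = 0.0783). KO 1, which had the lowest myeloid sum of the libraries labelled knock-out, had the highest Ifit3 level. Both the myeloid sum and Ifit3 were higher in every library labelled knock-out than in any labelled wild type. The part of the myeloid transcripts in the Ifit3 level was not tested.

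Ifit1 (Entrez 15957, chr19:34640889-34650009, plus strand) binds capped viral RNA that lacks 2′-O-methylation. It was at 7.12, 8.25, 10.6 and 10.3 CPM in WT 1, WT 2, WT 4 and WT 5. It was at 9.99, 9.93, 12.0 and 11.6 CPM in KO 1, KO 2, KO 4 and KO 5. The labels overlapped, since WT 4 and WT 5 were above KO 1 and KO 2. Its log2 fold change of 0.27 ± 0.14 did not pass (edgeR adjusted p = 0.285), and the 95% interval of 0.972-fold to 1.49-fold includes no change and a rise of the size seen for Ifi35. Ifit2 (Entrez 15958, chr19:34550550-34576534, plus strand), which binds AU-rich RNA, varied least of the members among the libraries labelled wild type. It was at 37.6 to 39.9 CPM with the wild-type label and 38.2 to 44.1 CPM with the knock-out label. These ranges overlapped, and the log2 fold change was 0.10 ± 0.06 (edgeR adjusted p = 0.341, 95% interval 0.981-fold to 1.17-fold).

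The cluster also holds close relatives of these genes, and reads can match more than 1 of them. Of the 81-base stretches in the transcripts of Ifit3, as long as the reads, 38.7% also occur in Ifit3b, whereas 4.74% of those of Ifit1 occur in Ifit1bl2 and 0 of those of Ifit2 occur in another gene. The sources used here do not say how the counting treated such reads, so the Ifit3 count is uncertain to that extent. Ifit3b (chr19:34607530-34613403) was at 1.71 ± 0.673 CPM with the wild-type label and 3.02 ± 0.727 CPM with the knock-out label, and this change of 0.82 ± 0.30 on the log2 scale did not pass (edgeR adjusted p = 0.137). Summed over Ifit3 and Ifit3b, the level was 4.97 to 7.28 CPM with the wild-type label and 7.72 to 11.3 CPM with the knock-out label, again without overlap. Ifit1bl1 (chr19:34592888-34662981), whose interval spans Ifit3b and Ifit1, was more abundant than either at 25.6 ± 3.14 CPM per kilobase with the wild-type label. It rose from 64.7 ± 7.94 to 88.7 ± 14.1 CPM (log2 fold change 0.45 ± 0.12, edgeR adjusted p = 0.0389). Its call ended without WT 1 (edgeR adjusted p = 0.107), WT 2 (0.0743), WT 5 (0.089) or KO 1 (0.0844), 1 left out at a time. The relatives Mx2 (0.24 ± 0.18), Isg20l2 (0.07 ± 0.06) and the Ifi35 partner Nmi (-0.05 ± 0.06) did not pass.

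**Figure D2:**
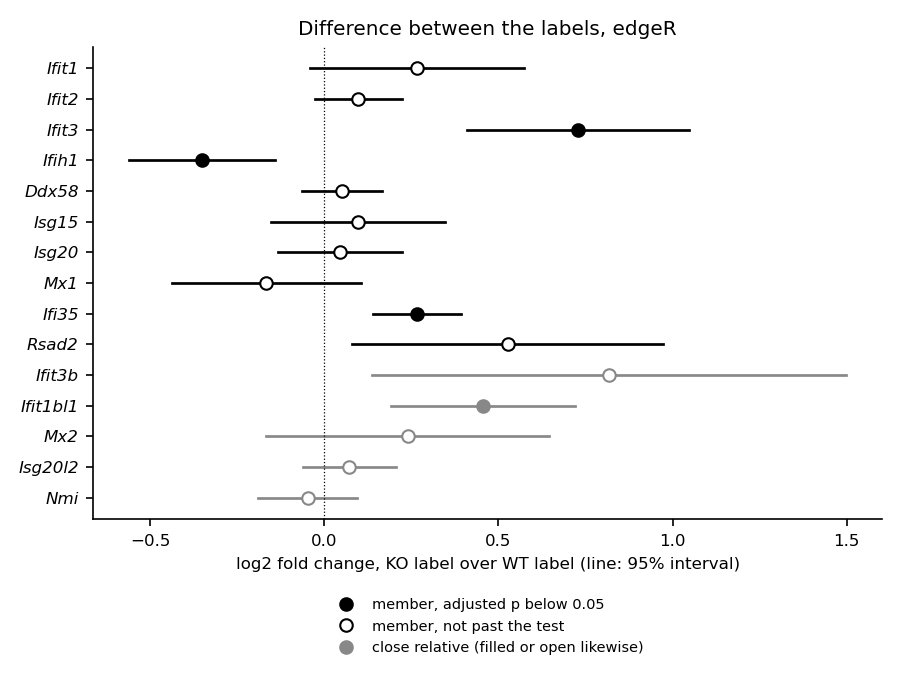
Log2 fold change of the knock-out label over the wild-type label for the 10 members (black) and 5 relatives or partners (grey), with the 95% interval as a line and filled points for edgeR adjusted p below 0.05. Ifit3, Ifi35 and Ifit1bl1 lie to the right of 0 and Ifih1 to the left, and the genes with open points did not pass.

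Of the 2 RNA sensors, Ifih1 was called and Ddx58 was not. Ifih1 (Entrez 71586, chr2:62595618-62646255, minus strand) encodes MDA5, the sensor of long double-stranded RNA. It was at 78.5, 65.5, 80.1 and 71.0 CPM in WT 1, WT 2, WT 4 and WT 5. It was at 48.6, 63.0, 62.5 and 57.3 CPM in KO 1, KO 2, KO 4 and KO 5. The labels did not overlap, but WT 2 and KO 2 were close to each other. Its log2 fold change was -0.35 ± 0.09, or 0.784-fold with a 95% interval of 0.678 to 0.906 (edgeR adjusted p = 0.0434). With 1 library left out at a time it was called 3 of 8 times, and the call was lost without WT 1 (edgeR adjusted p = 0.112), WT 4 (0.109), WT 5 (0.0645), KO 1 (0.0765) or KO 5 (0.0895). Its log2 fold change stayed between -0.41 and -0.28 in those 8 fits. Without KO 4 and KO 5 it was -0.40 (edgeR adjusted p = 0.0872), and without KO 2 and KO 4 it passed at -0.49 (edgeR adjusted p = 0.0219). Ifih1 did not pass with the host number as a block, as given further on.

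Ddx58 (Entrez 230073, chr4:40203777-40239825, minus strand) encodes RIG-I, the sensor of RNA with a 5′ triphosphate. It had the most counts of the members, 4261 to 4940 per library. It was at 114 to 125 CPM with the wild-type label and 112 to 128 CPM with the knock-out label, ranges that overlap almost wholly. The log2 fold change was 0.05 ± 0.05 (edgeR adjusted p = 0.637), and its 95% interval runs from 0.956-fold to 1.12-fold. The difference between the changes of Ifih1 and Ddx58 was not tested. Dhx58, which encodes LGP2, a regulator of both sensors, was at 16.0 ± 1.70 and 15.9 ± 1.09 CPM with the wild-type and knock-out labels (log2 fold change -0.01 ± 0.09, edgeR adjusted p = 0.952). Their adaptor Mavs was at 36.8 ± 2.25 and 36.3 ± 1.73 CPM (-0.02 ± 0.06, edgeR adjusted p = 0.879).

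Among the effectors outside the Ifit cluster, Ifi35 (Entrez 70110, chr11:101448412-101458701, plus strand) was the one called. It was at 42.5, 45.5, 48.1 and 42.9 CPM in WT 1, WT 2, WT 4 and WT 5. It was at 52.9, 52.9, 57.5 and 52.0 CPM in KO 1, KO 2, KO 4 and KO 5. All libraries labelled knock-out were above WT 4, the highest of the others. The log2 fold change was 0.27 ± 0.06, or 1.20-fold with a 95% interval of 1.10 to 1.31 (edgeR adjusted p = 0.0146). It was called whichever 1 library was left out (adjusted p at most 0.0464), but the call was lost without KO 2 and KO 4 (0.22, adjusted p = 0.0922) and without KO 4 and KO 5 (0.24, adjusted p = 0.0634). An antisense gene, Gm11626, shares 290 exon bases with Ifi35, 16.8% of its exon length, and the sources used here do not say whether the counting used strand.

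Rsad2 (Entrez 58185, chr12:26442743-26456452, minus strand) showed the widest spread. It was at 5.70, 5.96, 8.52 and 6.81 CPM in WT 1, WT 2, WT 4 and WT 5. It was at 7.74, 7.38, 12.4 and 11.4 CPM in KO 1, KO 2, KO 4 and KO 5. WT 4 was above KO 1 and KO 2, so the labels overlapped, and KO 4 and KO 5 were above all others. Its log2 fold change of 0.53 ± 0.20 did not pass (edgeR adjusted p = 0.143, 95% interval 1.06-fold to 1.96-fold), although its unadjusted p was 0.0253. Rsad2 did pass with the host number as a block, as given further on. KO 4 and KO 5 also had the highest myeloid sums, and they alone carry the number 8 in the sample descriptions, where the other 6 carry 7. Without them the log2 fold change of Rsad2 was 0.16 (edgeR adjusted p = 0.671). The myeloid level and that number each entered a fit as a term, described below, but their part in the Rsad2 level was not tested.

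Isg15 (Entrez 100038882, chr4:156199424-156200818, minus strand) was at 40.6, 40.8, 38.4 and 32.8 CPM in WT 1, WT 2, WT 4 and WT 5. It was at 35.1, 43.6, 48.1 and 36.4 CPM in KO 1, KO 2, KO 4 and KO 5. KO 4 was highest and WT 5 lowest, and the others were mixed. The log2 fold change was 0.10 ± 0.11 (edgeR adjusted p = 0.679, 95% interval 0.900-fold to 1.27-fold), and it was -0.10 without KO 2 and KO 4. Isg20 (Entrez 57444, chr7:78913396-78920396, plus strand) was at 28.1 to 34.8 CPM with the wild-type label and 30.8 to 35.8 CPM with the knock-out label. Its log2 fold change was 0.04 ± 0.08 (edgeR adjusted p = 0.814, 95% interval 0.911-fold to 1.17-fold), and -0.018 without WT 1.

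Mx1 (Entrez 17857, chr16:97447035-97462906, minus strand) is listed by RefSeq as a transcribed pseudogene in the C57BL/6J assembly and by GENCODE as protein-coding. Many laboratory strains carry a defective copy of this influenza resistance gene. It was at 45.1, 52.3, 67.3 and 55.5 CPM in WT 1, WT 2, WT 4 and WT 5. It was at 43.0, 56.1, 47.3 and 49.6 CPM in KO 1, KO 2, KO 4 and KO 5. WT 4 stood highest and KO 1 lowest, with the rest between them. Its log2 fold change was -0.17 ± 0.12 (edgeR adjusted p = 0.467, 95% interval 0.738-fold to 1.07-fold), and 1.4% of its 81-base stretches also occur in Mx2.

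Variation among libraries of the same label was shared by several members. WT 4 had the highest level of the wild-type label for 7 of the 10 members (Ifit1, Ifit2, Mx1, Ddx58, Rsad2, Ifi35 and Ifih1), whereas it was the highest for 27.2% of all genes. WT 1 was the lowest for 6 of them (Ifit1, Ifit3, Mx1, Isg20, Rsad2 and Ifi35), against 24.5% of all genes. WT 4 had the lowest myeloid level of all libraries (mean log2 CPM 1.45, and 438 CPM summed, of which Ccr2 gave 372 CPM). WT 1 had the highest myeloid level of the wild-type label (mean log2 CPM 2.29). The part of the myeloid transcripts in this variation was not tested. With the knock-out label KO 1 was highest for 4 members and KO 4 for another 4, and KO 5 for 0. Over all genes KO 1, KO 4 and KO 5 were the highest for 18.1%, 34.5% and 27.7%. The coefficient of variation within a label ran from 2.49% (Ifit2, wild-type label) to 26.1% (Rsad2, knock-out label), where the median gene had 6.75% and 7.48% with the wild-type and knock-out labels.

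**Figure D3:**
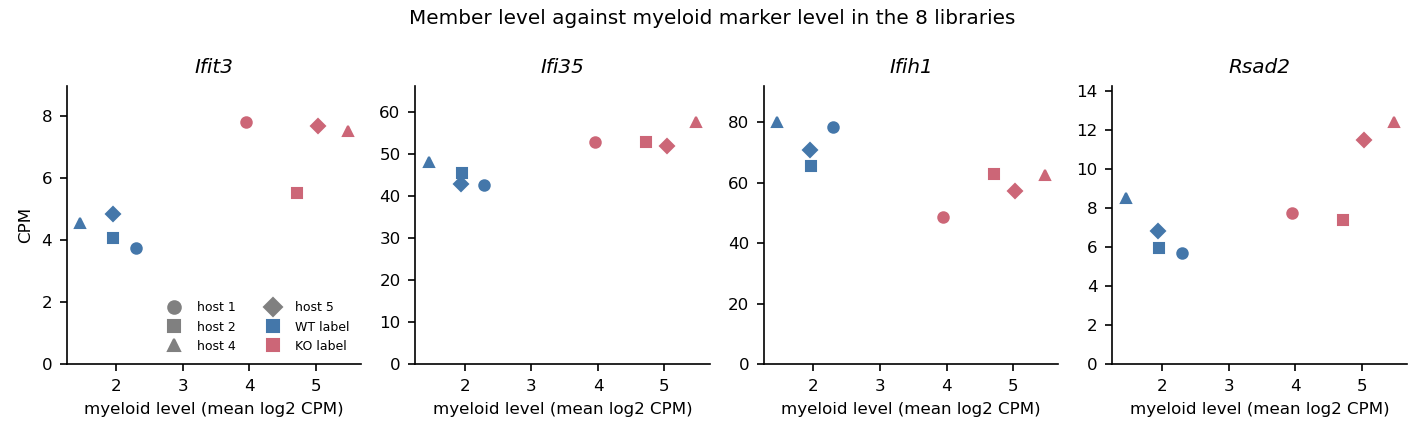
CPM of Ifit3, Ifi35, Ifih1 and Rsad2 (vertical axes from 0) against the mean log2 CPM of 20 myeloid markers in the 8 libraries, blue for the wild-type label and red for the knock-out label, with a symbol for each host number. The myeloid level runs from 1.45 to 2.29 with the wild-type label and from 3.95 to 5.48 with the knock-out label; Rsad2 is highest in KO 4 and KO 5, and Ifit3 is highest in KO 1.

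The myeloid level did not overlap between the labels, so that label and myeloid level cannot be told apart. With the myeloid level as a term none of the 10 members passed in edgeR's test, and of all 11354 genes 7 passed. At an unadjusted p under 0.05 that fit had 1 member, and 241 genes higher and 394 lower over all genes. In that fit Ifit3 (0.92), Ifi35 (0.26) and Ifih1 (-0.78) had changes in the same direction as without the term, whereas Rsad2 (-0.13), Isg15 (-0.51) and Mx1 (0.12) changed sign. With the number in the sample descriptions as a term, so that the label is compared through KO 1 and KO 2 alone, Ifit3 (0.63, edgeR adjusted p = 0.0688), Ifi35 (0.24, adjusted p = 0.0984) and Ifih1 (-0.40, adjusted p = 0.0956) kept their directions and none passed. All libraries labelled wild type carry the number 7, so a value within the number 8 could not be had.

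**Figure D4:**
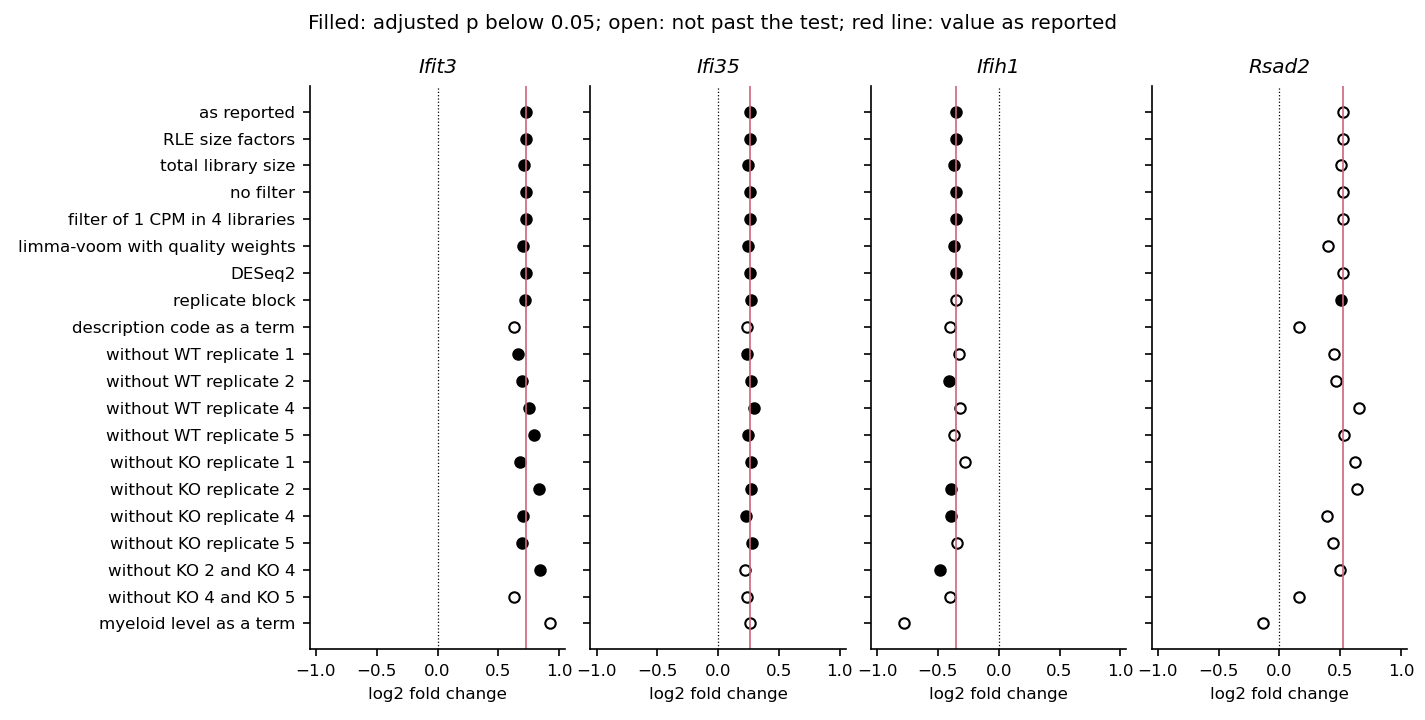
Log2 fold change of Ifit3, Ifi35, Ifih1 and Rsad2 (horizontal axes) as reported and under each alternative (rows), filled where the adjusted p was below 0.05, with a red line at the value as reported. Ifit3 and Ifi35 stay to the right of 0 and Ifih1 to the left in all rows, and Rsad2 crosses 0 with the myeloid level as a term.

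The wider interferon programme was described by 3 lists. Of 48 other interferon-induced genes, 5 were higher and 2 lower with the knock-out label in edgeR's test, 14.6% of the list where 10.0% of all genes were called. The median of the list was 0.03 on the log2 scale. The 4 with the smallest p were led by Cxcl9, a chemokine induced by interferon-gamma, which was at 3.36 to 5.77 CPM with the wild-type label and 21.5 to 62.6 CPM with the knock-out label (3.12 ± 0.32, edgeR adjusted p = 0.000418). In KO 1, KO 2, KO 4 and KO 5 it was at 21.5, 35.4, 62.6 and 48.9 CPM, the same order as the myeloid sum. Gm4951, an interferon-inducible GTPase-like gene, rose by 1.89 ± 0.30 and Tdrd7, a tudor domain gene, by 1.23 ± 0.22, both from low levels (0.651 and 1.46 CPM with the wild-type label). With the myeloid level as a term none of these 3 passed, and Gm4951 and Tdrd7 changed sign. The part of the myeloid transcripts in these 3 was not tested. Ifi27l2a, a small interferon-induced membrane protein gene, went the other way and fell from 76.3 ± 7.02 to 43.6 ± 6.06 CPM (-0.81 ± 0.10, edgeR adjusted p = 0.000993), a call made whichever 1 library was left out. The remaining calls were Ifit1bl1, Parp12 (0.38 ± 0.09, higher) and Ube2l6 (-0.77 ± 0.17, lower), the last pair named after their values were seen. Parp12 was called 1 of 8 times with 1 library left out, without WT 2, and its highest adjusted p was 0.0869 when WT 4 was left out. Usp18, which restrains interferon receptor signalling, was at 2.74 ± 0.580 and 3.39 ± 0.648 CPM and did not pass (0.31 ± 0.19, edgeR adjusted p = 0.393).

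Of 30 genes of nucleic acid sensing, 4 were higher and 0 lower in edgeR's test, 13.3% of the list where 10.0% of all genes were called, with a median of -0.0084. At an unadjusted p under 0.05 edgeR gave 8 of the list higher and 3 lower, and of all 11354 genes 1436 higher and 1230 lower. With adjustment DESeq2 called 2 of the list lower and limma-voom 1. Tlr9, an endosomal DNA receptor best known from B cells and dendritic cells, rose from 0.162 ± 0.125 to 2.59 ± 0.892 CPM (3.95 ± 0.45, edgeR adjusted p = 0.00058). With the wild-type label it rested on 3 to 14 counts per library. Tlr9 was at 1.47, 2.47, 3.64 and 2.77 CPM in KO 1, KO 2, KO 4 and KO 5, the order of their myeloid sums. It did not pass with the myeloid level as a term, and the part of the myeloid transcripts in it was not tested. The signalling ligase gene Traf6 (0.21 ± 0.05), the helicase gene Ddx3x (0.26 ± 0.07) and Zc3hav1, the gene of the CpG-binding antiviral protein ZAP (0.25 ± 0.07), rose by less, with edgeR adjusted p from 0.0224 to 0.0453. With 1 library left out at a time, Ddx3x and Zc3hav1 were each called 1 of 8 times, without KO 5, and reached an adjusted p of 0.119 (without WT 4) and 0.113 (without KO 1). Traf6 was called 5 of 8 times and lost its call without WT 2, WT 4 or KO 1 (adjusted p at most 0.0708). Irf7, the factor that amplifies interferon production, was at 136 ± 6.01 and 163 ± 20.7 CPM and did not pass (0.26 ± 0.08, edgeR adjusted p = 0.0923), but did without KO 4 (0.33, edgeR adjusted p = 0.00773), with limma-voom (0.29, adjusted p = 0.0297) and with DESeq2 (0.26, adjusted p = 0.0362).

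Of 20 genes of interferon receptors and signalling, 2 were higher and 0 lower in edgeR's test, which is 10.0% of the list and the same share as over all genes, with a median of 0.07. At an unadjusted p under 0.05 edgeR gave 2 of the list higher and 1 lower, and of all 11354 genes 1436 higher and 1230 lower. With adjustment DESeq2 and limma-voom each called 1 of the list lower. Ifnar2, a chain of the type I interferon receptor, was at 45.3, 39.8, 44.9 and 45.2 CPM in WT 1, WT 2, WT 4 and WT 5 and at 59.8, 54.2, 59.1 and 58.5 CPM in KO 1, KO 2, KO 4 and KO 5. The labels did not overlap, and the log2 fold change of 0.40 ± 0.06 (edgeR adjusted p = 0.00172) was called whichever 1 library was left out. Its partner chain Ifnar1 was at 191 ± 13.2 and 205 ± 16.4 CPM and did not pass (0.10 ± 0.07, edgeR adjusted p = 0.438). Ifngr2, the signalling chain of the interferon-gamma receptor, rose from 0.813 ± 0.205 to 4.61 ± 1.70 CPM (2.50 ± 0.32, edgeR adjusted p = 0.00109). With the wild-type label it rested on 24 to 42 counts per library. Ifngr2 was at 2.28, 4.53, 6.22 and 5.42 CPM in KO 1, KO 2, KO 4 and KO 5, again the order of the myeloid sums. Its change was -0.12 with the myeloid level as a term, which cannot be told apart from the label. The part of the myeloid transcripts in Ifngr2 was not tested. Among the kinases of these receptors, Tyk2 (-0.18 ± 0.06, edgeR adjusted p = 0.0847) and Jak2 (-0.18 ± 0.08, adjusted p = 0.215) did not pass. Tyk2 passed with total library size (-0.20, adjusted p = 0.0427), limma-voom (-0.21, adjusted p = 0.0264) and DESeq2 (-0.18, adjusted p = 0.0327), and Tyk2 and Jak2 both passed without KO 4. Of the factors that carry the type I signal to the promoters, Stat2 was at 108 ± 9.52 and 105 ± 4.32 CPM and did not pass (-0.03 ± 0.06, edgeR adjusted p = 0.852). Irf9 was at 115 ± 5.01 and 112 ± 6.10 CPM and did not pass either (-0.04 ± 0.05, edgeR adjusted p = 0.721).

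**Figure D5:**
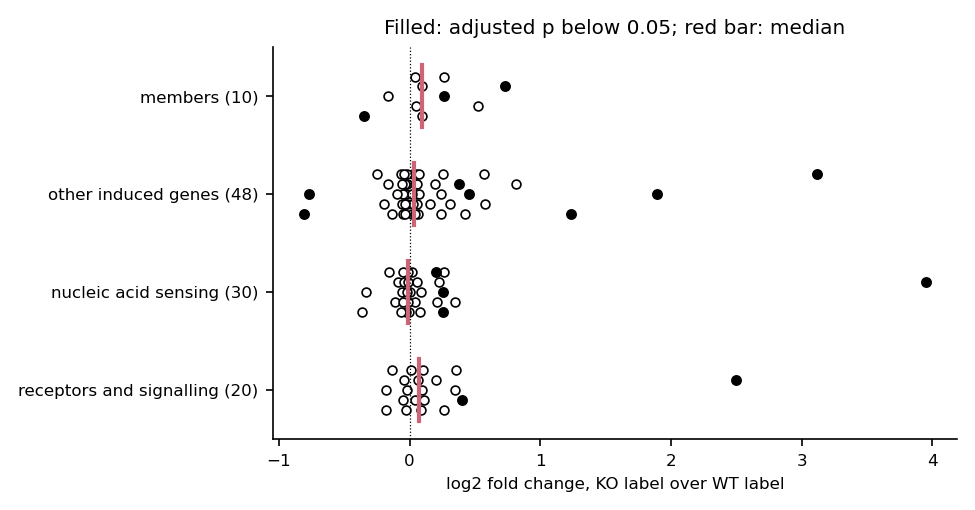
Log2 fold change of the knock-out label over the wild-type label (horizontal axis) for the 10 members and the genes of 3 lists (rows), filled where edgeR's adjusted p was below 0.05, with a red bar at the median. The medians lie between -0.0084 and 0.10, and the points farthest to the right are Tlr9, Cxcl9 and Ifngr2.

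The genes whose pattern over the 8 libraries was most like the mean of Ifit1, Ifit2 and Ifit3 were found from log2 CPM centred on each gene's mean. Jmjd6, a hydroxylase gene, was nearest, with a root mean square difference of 0.0795 log2 units. It was higher with the knock-out label (0.38 ± 0.06, edgeR adjusted p = 0.00223). Ppp1r2-ps3 (0.0909), Pomt2 (0.0911), Mmachc (0.0912) and Unc13a (0.0924) followed, and none of these 4 passed the test. The likeness was measured over 8 libraries of 2 labels, so a difference between the labels is part of it, and none of the 5 belongs to the 3 lists.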

How the data were processed

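The deposited values are raw counts of reads for each gene, listed by symbol, Entrez number and length. They are whole numbers with a different total in each library. Reads of 81 bases from a stranded poly(A) library kit were aligned with STAR to mm10, per the submitters' processing notes and the labels' protocols. The sources used here do not name the program, annotation or strand setting of the counting. The fourth-highest CPM of every gene was at least 0.987, so the table holds no gene that is low in all libraries. A gene high under 1 label can still be low under the other. With the wild-type label Tlr9 had 3 to 14 counts per library and Nlrp6 3 to 8. Groups and host numbers come from the sample titles.

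Counts were scaled with TMM factors, and filterByExpr kept all 11354 genes. Genes were tested with edgeR 4.0.16 (glmQLFit, glmQLFTest) on the label alone in R 4.3.3, with limma 3.58.1 and DESeq2 1.42.0 as alternatives. The steps were tested on simulated data. Standard errors were taken as |log2 fold change| over √F, and 95% intervals use the t quantile on the test's degrees of freedom. CPM per kilobase divides CPM by the deposited length. Log2 CPM had a prior count of 2. Marker sums were compared by two-sided exact permutation over 70 assignments, adjusted over 6 lists. Positions are from RefSeq on GRCm38.p6, the assembly that mm10 names, and exon overlaps and 81-base stretches from GENCODE M21.

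The members and lists were chosen with earlier results of these data known. Named are all members, Nlrp6, fixed relatives and pathway genes, the 4 genes of smallest p in each of 3 lists, and the 5 genes nearest to the mean Ifit pattern. One pathway gene is not reported here. Alternatives were RLE factors, total library size, no filter, 1 CPM in 4 libraries, limma-voom, DESeq2, the host number as a block, the number in the sample descriptions, the myeloid level, each library left out, and KO 2 and KO 4 left out. Leaving out KO 4 and KO 5, those with the most myeloid transcripts here, was chosen after seeing the data.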

Additional observations from a re-analysis of the deposited data

Results flagged for a closer look

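In 88 groups of 4 libraries (1 group for each gene and label), the highest or lowest library was tested for a gap to the nearest other library that, as a share of the group's range, was above Dixon's 95% critical value, which chance gives in about 1 in 20 groups. There were 8 such libraries. Among the members, Ifit3 was at 5.53 CPM in KO 2, below the other libraries labelled knock-out at 7.54 to 7.81 CPM. Ddx58 was at 125 CPM in WT 4, above the others at 114 to 116 CPM, and Ifi35 was at 57.5 CPM in KO 4, above the others at 52.0 to 52.9 CPM. Among the other named genes, Dhx58 was at 18.6 CPM in WT 4, above the others at 15.1 to 15.2 CPM, and Ifnar2 was at 39.8 CPM in WT 2, below the others at 44.9 to 45.3 CPM. Of the genes with a pattern like the Ifit mean, Jmjd6 was at 71.7 CPM in WT 5 (others 64.3 to 65.1 CPM), Pomt2 at 6.10 CPM in KO 5 (others 5.43 to 5.50 CPM) and Unc13a at 5.04 CPM in KO 2 (others 6.11 to 6.28 CPM).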

How the results depend on the processing

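The members' counts stayed at 2 higher and 1 lower with RLE factors, total library size, both filters, DESeq2 and limma-voom. Leaving out 1 library at a time gave 0 to 1 members lower, 276 to 509 genes lower (436 with all libraries), 3 to 5 other induced genes higher and 1 to 2 lower, 1 to 6 sensing genes higher and 0 to 1 lower, and 0 to 2 receptor genes lower. The 436 genes became 277 without WT 1 and 276 without KO 1, and the sensing genes higher became 1 without WT 4 or KO 1, 2 without WT 1, WT 2, WT 5 or KO 2, and 6 without KO 5. With total library size and with limma-voom 1 sensing gene and 1 receptor gene were lower. DESeq2 gave 9 other induced genes higher, 2 sensing genes lower and 1 receptor gene lower. With the replicate block edgeR gave 0 members lower (1 at an unadjusted p under 0.05), 1 other induced gene lower and 2 sensing genes higher, Ifih1 (-0.35, adjusted p = 0.0886) and Ube2l6 (adjusted p = 0.0579) did not pass, and Rsad2 did (0.51, adjusted p = 0.032). Correlations of deviations between same-numbered libraries were -0.0601, 0.182, -0.138 and 0.256, and not every library correlated best with its own number. The numbers were therefore not taken as pairs, but these correlations cannot exclude that they are. With the number in the sample descriptions as a term, 249 genes were lower, 0 members higher or lower (2 and 1 at an unadjusted p under 0.05), 3 other induced genes and 1 sensing gene higher. Without KO 2 and KO 4, 1 member was higher, 3 other induced genes higher and 1 lower, 2 sensing genes higher and 2 receptor genes lower. Without KO 4 and KO 5, 0 members were higher or lower (2 and 1 at an unadjusted p under 0.05) and 3 other induced genes higher. With the myeloid level as a term, 5 genes were higher and 2 lower, and 0 members, other induced, sensing and receptor genes passed (0 and 1, 2 and 1, 2 and 0, 0 and 1 higher and lower at an unadjusted p under 0.05). At an unadjusted p under 0.05, edgeR gave 1495 higher and 1240 lower of all genes with the replicate block. With the number in the sample descriptions it gave 1116 and 921. Without KO 4 and KO 5 it gave 1285 and 1087, and with the myeloid level 241 and 394. The causes were not tested, and fits without libraries have fewer samples.

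Some values changed sign, none of which passed in the fit that changed it. With the myeloid level these were Isg15 (-0.51), Mx1 (0.12), Rsad2 (-0.13), Gm4951 (-0.087), Tdrd7 (-0.33), Ifngr2 (-0.12), Nmi (0.030), Dhx58 (0.073), Stat2 (0.24), Ifnar1 (-0.10) and Uba7 (0.16). Without KO 2 and KO 4 they were Isg15 (-0.10), Stat2 (0.012) and Ifnar1 (-0.0070). With 1 library left out the ranges crossed 0 for Isg20 (-0.018 to 0.085), Dhx58 (-0.058 to 0.058), Mavs (-0.050 to 0.0088), Stat2 (-0.074 to 0.026) and Herc6 (-0.014 to 0.10). Summed markers under total library size passed the exact permutation test at adjusted p = 0.0429 for 4 lists. These were the genes of T cells (ratio 0.912), myeloid cells (2.23), dendritic cells and MHC class II (8.12), and neutrophils (3.29). These exact p-values are the smallest possible, so their adjustment follows the other lists. Among the members depth limits Ifit3 and Rsad2 most, with as few as 153 and 233 counts in a library.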

Other observations

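The enzymes that attach ISG15 to proteins and remove it were looked at after their values were seen, and none belongs to the 10 genes. Ube2l6, the gene of the conjugating enzyme, was at 11.0, 8.23, 8.32 and 7.67 CPM in WT 1, WT 2, WT 4 and WT 5 and at 4.35, 4.23, 6.04 and 6.10 CPM in KO 1, KO 2, KO 4 and KO 5. The labels did not overlap, and its log2 fold change of -0.77 ± 0.17 passed edgeR's test (adjusted p = 0.0178), and did so 7 of 8 times with 1 library left out (0.0505 without KO 1). It did not pass without KO 2 and KO 4 (adjusted p = 0.0577). Uba7, the gene of the activating enzyme, was at 224 ± 7.61 and 215 ± 10.1 CPM with the wild-type and knock-out labels (-0.06 ± 0.05, edgeR adjusted p = 0.525). Herc6, the gene of the mouse ISG15 ligase, was at 59.9 ± 5.75 and 61.7 ± 2.36 CPM (0.04 ± 0.07, edgeR adjusted p = 0.78). Usp18, the gene of the enzyme that removes ISG15, did not pass either, and neither did Isg15 itself.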
